A study of Mus musculus with 12 samples.

Results

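*Gde1*, *Gdpd1*, *Gdpd2* and *Gdpd3* encode glycerophosphodiester phosphodiesterases that are paralogs of GDE2, the product of *Gdpd5*. They were taken by symbol from the deposited table of transcript identifiers, and all 4 were found, 4 of 36047 genes listed. The family holds 3 further genes in that table, *Gdpd4*, *Gdpd5* and *Gpcpd1*, so that the 4 paralogs are 4 of 7 family genes. The data are bulk polyA RNAseq libraries from mouse cortex, 3 for each of 4 groups: WT at 4 months, *Gde2*KO at 4 months, WT at 19 months and *Gde2*KO at 19 months. The *Gde2*KO animals carry the germline *Gde2*-/- allele in every cell, so that the cell types that would use GDE2 are not separated, and the labels give neither strain nor sex. The study describes the 19-month libraries as separate animals, and neither it nor the labels were found to say so for 4 months. Libraries of 4 months have replicate numbers 1 to 3. Those of 19 months have no number and are named A, B and C here by the sequence of the table's columns. The comparisons ask whether transcripts of any remaining paralog differ when GDE2 is lost.

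Glycerophosphodiester phosphodiesterases cleave the phosphodiester bond that joins glycerol phosphate to a head group. GDE2 and GDE3, the product of *Gdpd2*, are multipass membrane proteins with an extracellular catalytic domain, and both can release proteins held on the cell surface by a glycosylphosphatidylinositol (GPI) anchor. GDE1, from *Gde1*, is a broadly expressed membrane enzyme that hydrolyses glycerophosphoinositol and glycerophospho-N-acylethanolamines, the precursors of anandamide and related lipids. GDE4, from *Gdpd1*, and GDE7, from *Gdpd3*, act as lysophospholipase D enzymes that make lysophosphatidic acid (LPA) and N-acylethanolamines. *Gpcpd1* encodes the cytosolic enzyme GDE5, which hydrolyses glycerophosphocholine, and *Gdpd4* encodes GDE6.

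The 4 genes lie apart from one another. On GRCm38 with GENCODE vM21, *Gde1* spans chr7:118688545-118705778 on the minus strand and *Gdpd3* chr7:126766334-126775649 on the plus strand, on the chromosome that also carries *Gdpd5* at chr7:99381414-99461877. *Gdpd1* spans chr11:87033867-87074062 on the minus strand, and *Gdpd2* spans chrX:100729873-100738895 on the plus strand. Of the 31-mers in their annotated transcripts, the length by which a k-mer aligner assigns reads, 0 were shared with any other gene among 116728 transcripts scanned, so that reads of 1 paralog are not counted for another by sequence identity of that length. This count does not cover the opposite-strand genes whose exons overlap a paralog, which are given below.

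Stretches of the 4 promoters are shown because the CpG content separates *Gde1* and *Gdpd1*, the paralogs of higher level, from *Gdpd2* and *Gdpd3*, those of lower level. Each is the sequence 250 to 81 bases before the RefSeq start of the gene (GRCm38.p6), a stretch that lies outside every annotated transcript of the gene, written 5′ to 3′ on the gene's strand with each CG dinucleotide in capitals.
Gde1 (chr7:118705819-118705988, minus strand): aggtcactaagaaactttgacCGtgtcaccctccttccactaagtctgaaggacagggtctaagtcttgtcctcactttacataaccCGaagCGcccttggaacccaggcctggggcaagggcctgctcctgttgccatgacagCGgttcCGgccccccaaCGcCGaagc
Gdpd1 (chr11:87074218-87074387, minus strand): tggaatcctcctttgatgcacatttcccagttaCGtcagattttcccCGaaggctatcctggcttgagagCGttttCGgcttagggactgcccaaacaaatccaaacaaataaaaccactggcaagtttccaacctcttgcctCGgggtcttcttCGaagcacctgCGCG
Gdpd2 (chrX:100729597-100729766, plus strand): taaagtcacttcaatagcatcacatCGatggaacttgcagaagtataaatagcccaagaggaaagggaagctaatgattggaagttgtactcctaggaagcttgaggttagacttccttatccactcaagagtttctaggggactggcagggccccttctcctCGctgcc
Gdpd3 (chr7:126766164-126766333, plus strand): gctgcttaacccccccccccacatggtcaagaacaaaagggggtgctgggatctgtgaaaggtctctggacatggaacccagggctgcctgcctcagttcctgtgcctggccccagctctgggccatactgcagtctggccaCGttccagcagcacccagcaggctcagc
The *Gde1* stretch holds 7 CG dinucleotides and the *Gdpd1* stretch 8. The *Gdpd2* stretch holds 2 and the *Gdpd3* stretch 1. Over all 32851 stretches of the same position in the RefSeq promoter table the median is 3, and 86.3% hold at least 1. At least as many as in *Gde1* were found in 32.4% of stretches, at least as many as in *Gdpd1* in 29%, and at least as many as in *Gdpd2* in 70.4%. CG reads the same on both strands, and these counts describe the letters only. Promoters of the other family genes were not counted, and a link between CG count and level was not tested. The *Gdpd1* stretch also lies within the span of the opposite-strand gene *Gm11479*.

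Several libraries stand apart. Estimated depth was 46434270 to 59728494 reads per library at 4 months and 3707928 to 44604721 at 19 months, and the shallow libraries were WT A with 6734475 reads and *Gde2*KO A with 3707928. One read is worth 4.66 normalized counts in WT A and 8.29 in *Gde2*KO A, against 0.597 to 0.847 in the other 10. Cortical neuron markers were abundant in every library, with the vesicle protein gene *Snap25* at 55757 normalized counts or more and the glutamate transporter gene *Slc17a7* at 34416 or more. At 4 months the summed level of 8 hippocampal markers was 40404 and 31921 in WT replicates 1 and 2 against 9381 to 14224 in the other 4 libraries, and the summed level of 8 striatal markers was 5484 and 3478 against 30726 to 73326. Transcripts of the Y-linked gene *Ddx3y* were at 21.8 to 46.5 normalized counts in all 6 libraries of 4 months and at 1406.5 to 1776 in 5 libraries of 19 months. *Gde2*KO A held 0 *Ddx3y* reads, which allows up to 24.9 normalized counts. Y-linked transcripts thus separate the 4-month libraries and *Gde2*KO A from the other 19-month libraries, and in WT, sex, age and library set cannot be told apart.

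*Gdpd5*, the targeted gene, was lower in normalized counts in every *Gde2*KO library than in every WT library of the same age. Groups without overlap were found for 15.4% of genes tested at 4 months and 14.2% at 19 months. In TPM the 4-month groups overlapped, with *Gde2*KO replicate 2 at 14.9 above WT replicates 1 and 2 at 12.3 and 12.7. *Gdpd5* measured 684, 702 and 1199 normalized counts in WT and 417, 585 and 403 in *Gde2*KO at 4 months. In 19-month cortex it measured 1065, 1129 and 952 in WT and 441, 456 and 560.1 in *Gde2*KO. The fitted log2 difference was -0.85 (SE 0.25, limma adjusted p = 0.463) at 4 months and -1.11 (SE 0.12, adjusted p = 0.0111) at 19 months, so that it was called at 19 months. The 19-month call was lost without WT library A (-1.10, adjusted p = 0.118), in the fit to all 4 groups (adjusted p = 0.194), without the intensity trend (adjusted p = 0.288) and with gene sums of TPM (-0.84, adjusted p = 0.615). These sums include any transcript of the targeted gene outside its deleted part. At 4 months *Gdpd5* was called with array weights (-0.76, limma adjusted p = 0.0123), with which 2420 genes were called. Its 4-month difference was -0.59 without WT replicate 3 and -1.38 without WT replicates 1 and 2.

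Compared per length, *Gde1* was by far the most abundant family gene. On the TPM scale, which here is TPM divided by a size factor of each library, its mean level in WT was 204 ± 22.9 (SD, n = 3) at 4 months and 181 ± 4.96 at 19 months. *Gpcpd1* followed at 64.3 ± 5.22 and 66 ± 5.52. *Gdpd1* came next at 31.6 ± 3.57 and 26.1 ± 2.56, and *Gdpd5* after it at 16.5 ± 6.88 and 19 ± 2.13. *Gdpd2* lay at 7.88 ± 0.458 TPM in WT at 4 months and 4.6 ± 1.14 at 19 months, and *Gdpd3* at 3.55 ± 0.914 and 6.71 ± 2.46. *Gdpd4* was at 0 to 6 estimated reads in every library and was not tested. In all 4 groups the order ran *Gde1*, *Gpcpd1*, *Gdpd1*, *Gdpd5*, with no overlap of the libraries between neighbours. *Gdpd2* lay above *Gdpd3* in both groups of 4 months without overlap, and below it in both groups of 19 months with overlapping libraries. The 4 paralogs together made 247 ± 22.5 TPM in WT and 316 ± 80.8 in *Gde2*KO at 4 months, and 218 ± 2.46 in WT and 213 ± 7.87 in *Gde2*KO at 19 months. The highest sum at 4 months, 407, was that of *Gde2*KO replicate 3. On this scale all transcripts of that library totalled 1472300, against 1003570 to 1103970 in the other libraries of 4 months. *Gde1* alone gave 62.1% ± 2.55 of the summed TPM of the 7 family genes in 4-month WT and 59.7% ± 0.741 in 19-month WT. In *Gde2*KO it gave 69.8% ± 5.53 at 4 months and 60.9% ± 2.5 at 19 months. The 4-month libraries overlapped, at 60.3% to 65.1% in WT and 64.2% to 75.3% in *Gde2*KO, with the highest share in *Gde2*KO replicate 3. Libraries of 19 months overlapped too, and these shares were not tested.

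**Figure D1:**
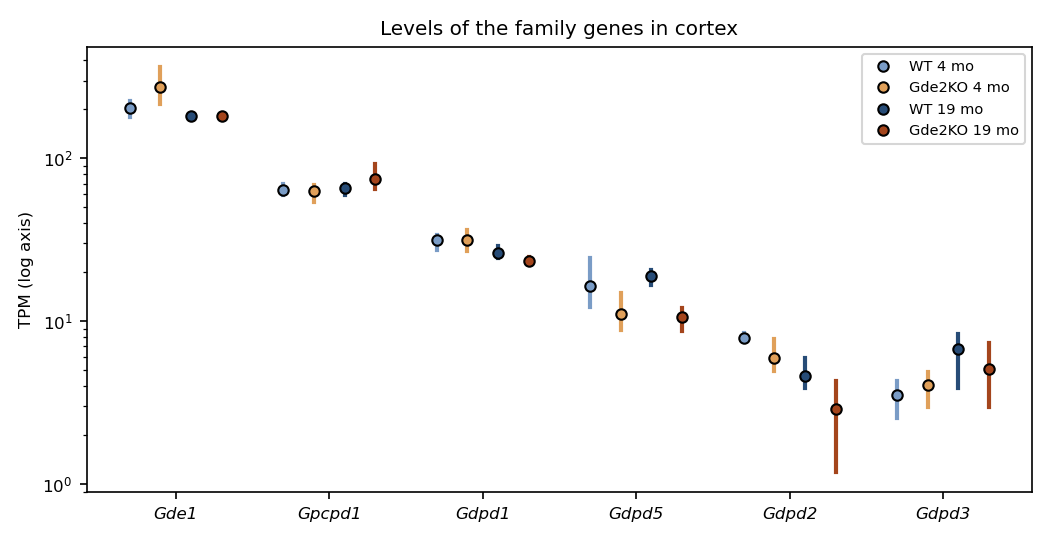
Level of 6 family genes in cortex in TPM on a log axis, with a point for each group's mean over 3 libraries and a bar from its lowest to its highest library. *Gde1* is the highest in every group, and *Gdpd2* and *Gdpd3* are the lowest; *Gdpd4* is left out because it was listed at 0 in some libraries.

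Of the 4 paralogs, 0 were called between *Gde2*KO and WT at 4 months and 0 at 19 months. A gene was called at a limma adjusted p under 0.1 over all tested genes with a log2 fold change beyond 0.721 either way, and 0.126% of 19035 genes tested were called at 4 months and 0.0969% of 18583 at 19 months. At an unadjusted p under 0.05, 0 of the 4 paralogs passed at either age, against 2025 genes in all at 4 months and 1285 at 19 months. The median log2 difference over all genes was 0.11 at 4 months, so that values at that age are also given relative to it, and -0.02 at 19 months. Other scalings move this median, at 4 months to 0.015 with TMM factors, -0.024 with equal library totals and -0.15 with gene sums of TPM.

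*Gde1*, the glycerophosphoinositol phosphodiesterase, measured 5575, 4356 and 4988 normalized counts in WT and 6254, 5172 and 9516 in *Gde2*KO at 4 months. Replicate 3 of *Gde2*KO was the highest of all 12 libraries, and the groups overlapped. The log2 difference was 0.45 (95% interval -0.07 to 0.97, adjusted p = 0.476), or 0.34 relative to all genes. Without replicate 3 of *Gde2*KO it was 0.20 (adjusted p = 0.779), and that library also had the largest total of normalized counts. At 19 months *Gde1* measured 4347, 4531 and 4506 in WT and 4412, 4332 and 4564 in *Gde2*KO. The WT values lay within the range of the *Gde2*KO values, with a difference of -0.57% (95% interval -7.94% to 7.4%, limma adjusted p = 0.971). On the log2 scale this was -0.01, or 0.01 relative to all genes, and with TMM factors and gene sums of TPM, which move all genes, the unadjusted value turned positive. The interval at 19 months is the narrowest of the 4 paralogs.

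*Gdpd1*, the lysophospholipase D gene for GDE4, measured 1343, 1323 and 1083 normalized counts in WT and 1292, 1059.9 and 1541 in *Gde2*KO at 4 months. The groups overlapped, with a log2 difference of 0.04 (95% interval -0.35 to 0.44, adjusted p = 0.908). Relative to all genes it was -0.064, and -0.064, -0.065 and -0.041 under TMM factors, equal library totals and gene sums of TPM, under which the value itself was negative too. At 19 months it measured 1151, 980.5 and 993 in WT and 970.3, 898 and 939.9 in *Gde2*KO. Here each *Gde2*KO library lay below each WT library, by 9.9% in the fit (95% interval -21.3% to 3.16%, adjusted p = 0.734). An exact two-sided permutation test over the 6 libraries gave p = 0.1, the smallest value that 3 against 3 allow, and 14.2% of all genes tested at 19 months had groups that did not overlap, against 15.4% at 4 months. Without both shallow libraries the log2 difference was -0.10 in place of -0.15.

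*Gdpd2*, the gene for the GPI-anchor-cleaving enzyme GDE3, measured 244, 222 and 201 normalized counts in WT and 234, 152 and 188 in *Gde2*KO at 4 months. The groups overlapped, and the log2 difference was -0.23 (95% interval -0.70 to 0.24, adjusted p = 0.597), or -0.34 relative to all genes. At 19 months it measured 93.2, 106 and 91.6 in WT and 49.8, 104 and 122 in *Gde2*KO. The lowest value, in *Gde2*KO A, rests on 6 estimated reads, whose exact Poisson 95% interval runs from 18.3 to 108 normalized counts and covers counting error only. The log2 difference was -0.17 (95% interval -0.92 to 0.58, adjusted p = 0.892), and without that library it was 0.22 (adjusted p = 0.876). With gene sums of TPM it was -0.82 (adjusted p = 0.78), and at 4 months -0.62 (adjusted p = 0.549), neither of them called.

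*Gdpd3*, the gene for the LPA-producing enzyme GDE7, was the lowest of the 4 in normalized counts, which are not corrected for length. It measured 30.3, 33.3 and 19.7 normalized counts in WT and 38.2, 29.6 and 23.5 in *Gde2*KO at 4 months, with a log2 difference of 0.14 (95% interval -0.61 to 0.88, adjusted p = 0.845), or 0.028 relative to all genes. At 19 months it measured 65.2, 30.5 and 57 in WT and 24.9, 37.2 and 52.3 in *Gde2*KO, with a difference of -0.40 (95% interval -1.33 to 0.52, adjusted p = 0.785). The groups overlapped at both ages. *Gde2*KO A holds 3 *Gdpd3* reads and WT A 14, and without both libraries the 19-month difference was 0.08. At this depth the intervals allow a level in *Gde2*KO from 60.3% lower to 43.8% higher than WT at 19 months.

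**Figure D2:**
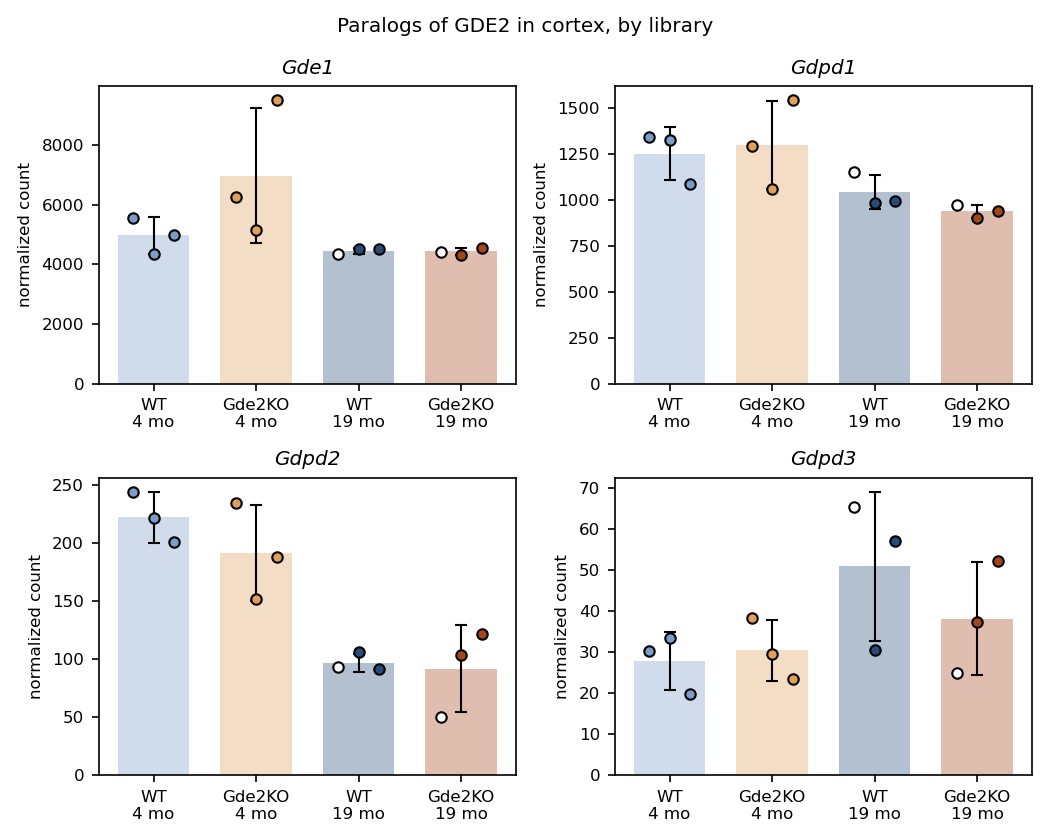
Normalized counts of the 4 paralogs in each library, with bars for group means and whiskers for 1 SD (n = 3); open circles are the shallow 19-month libraries, WT A and *Gde2*KO A. WT and *Gde2*KO overlap at both ages for all but *Gdpd1* at 19 months, and *Gdpd2* lies between 152 and 244 at 4 months and between 49.8 and 122 at 19 months.

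The size of the genotype difference was also compared between the ages, in 1 fit to all 12 libraries. The interaction of genotype and age was called for 0 of the 4 paralogs, with 0.048% of 18731 genes called. For *Gde1* the difference at 19 months minus that at 4 months was -0.46 on the log2 scale (95% interval -0.99 to 0.08, adjusted p = 0.424), beside a median of -0.15 over all genes. For *Gdpd1* it was -0.19 (adjusted p = 0.632) and for *Gdpd2* 0.06 (adjusted p = 0.949). With gene sums of TPM these were 0.049 and -0.21. Relative to all genes *Gdpd1* was then at -0.07 against -0.044, and *Gdpd2* at -0.33 against 0.21, so that the sign of *Gdpd2* turned. For *Gdpd3* it was -0.54 with an interval from -1.73 to 0.65 (adjusted p = 0.633).

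*Gdpd2* was the one paralog called between the ages. Its level at 19 months differed from that at 4 months by -56.3% in WT (log2 -1.19, SE 0.29, adjusted p = 0.0166) and by -54.4% in *Gde2*KO (log2 -1.13, SE 0.29, adjusted p = 0.021), and the libraries of the 2 ages did not overlap in either genotype. In the same fit 13.7% of 18731 genes were called in WT and 11.9% in *Gde2*KO, and 7.4% and 9.32% were called lower at 19 months. Groups that did not overlap were found for 46% of genes in WT and 41.2% in *Gde2*KO. Relative to the median over all genes, -0.07 in WT and -0.21 in *Gde2*KO, the *Gdpd2* difference was -1.12 and -0.92.

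The *Gdpd2* call was not kept under every alternative. Without *Gde2*KO A it was -0.74 in *Gde2*KO (adjusted p = 0.0363). With gene sums of TPM it was -0.60 in WT (adjusted p = 0.342) and -0.81 in *Gde2*KO (adjusted p = 0.176), and the call was lost in both. Relative to all genes these values were -0.71 in WT and -1.04 in *Gde2*KO, since TPM sums also move the median. Without WT replicates 1 and 2 of 4 months, the libraries high in hippocampal markers, the difference in WT was about as large (-1.05, adjusted p = 0.297), from 1 WT library of 4 months whose spread is taken from the other groups. *Gdpd2* is X-linked, and the Y-linked transcripts differ between the ages as given above. In *Gde2*KO without the 2 libraries with high Y-linked transcripts, the difference was -1.91 (adjusted p = 0.00515), from 1 library of 19 months with 6 reads, whose spread is again taken from the other groups. Marker lists of several cell types also moved with age: the summed level of 6 oligodendrocyte precursor markers was 8079 to 9777 normalized counts at 4 months and 5359 to 6651 at 19 months, and that of 6 ependymal markers was 391 to 809 and 246 to 357. Of the precursor markers, 2 were called lower with age in WT and 1 in *Gde2*KO, and of the ependymal markers 3 in each. Of 8 oligodendrocyte markers 4 were called lower in both genotypes, of 8 hippocampal markers 6 in WT and 2 in *Gde2*KO, of 8 striatal markers 0 in WT and 2 in *Gde2*KO, and of 8 astrocyte markers 1 in both, the water channel gene *Aqp4*. Of 7 choroid plexus markers 2 were called lower in WT and 1 in *Gde2*KO, and of 8 microglial markers 0 and 1. Other calls went higher: 4 of 5 blood markers in WT, with 0 called in *Gde2*KO. Of 7 endothelial markers 1 was called higher in WT and 1 lower in *Gde2*KO, and of 8 neuron markers 0 were called in either. The part of these markers in the *Gdpd2* difference was not tested. In bulk cortex, fewer cells of a type and less RNA per cell cannot be told apart.

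**Figure D3:**
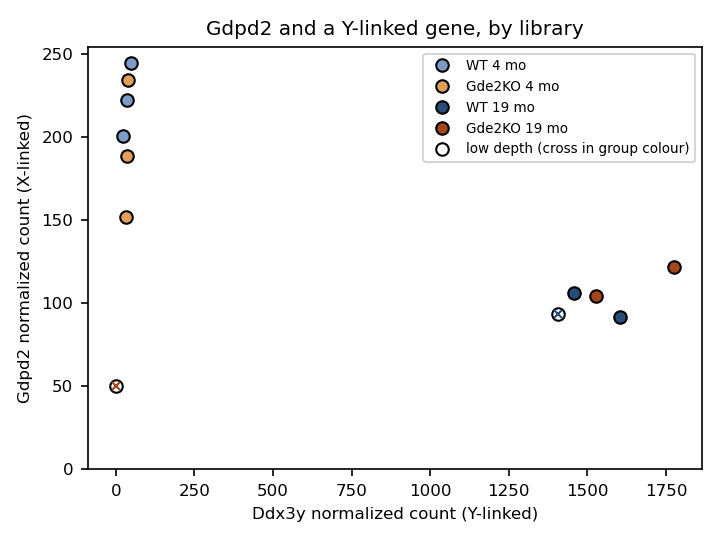
Normalized counts of X-linked *Gdpd2* against Y-linked *Ddx3y* in the 12 libraries, coloured by group, with the shallow libraries as open circles with a cross. The 6 libraries of 4 months have *Ddx3y* at 46.5 or less and *Gdpd2* at 152 or more, and the 19-month libraries have *Gdpd2* at 122 or less, with *Ddx3y* at 0 in *Gde2*KO A and at 1406.5 or more in the others.

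The other paralogs were not called with age. *Gdpd3* had a log2 difference of 0.83 in WT (95% interval -0.01 to 1.67, adjusted p = 0.151) and 0.29 in *Gde2*KO (adjusted p = 0.616). In WT this difference passed the thresholds without library B (1.16, adjusted p = 0.0924) and not otherwise among the alternatives run. *Gde1* differed by -0.61 in *Gde2*KO (SE 0.17, adjusted p = 0.031) and *Gdpd1* by -0.45 (SE 0.14, adjusted p = 0.0374), both past the p threshold with a fold change below the fold threshold. With gene sums of TPM these differences were -0.18 (adjusted p = 0.171) and -0.030 (adjusted p = 0.882). The median over all genes moved with them, from -0.21 to 0.23, and relative to it *Gde1* was at -0.41 against -0.40 and *Gdpd1* at -0.26 against -0.25. *Gde1* differed by -0.61 also without the 2 libraries with high Y-linked transcripts, with adjusted p = 0.298. In WT *Gde1* differed by -0.15 (adjusted p = 0.577), and by 0.028 with gene sums of TPM, which relative to all genes is -0.081 and -0.074, and *Gdpd1* by -0.26 (adjusted p = 0.204).

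**Figure D4:**
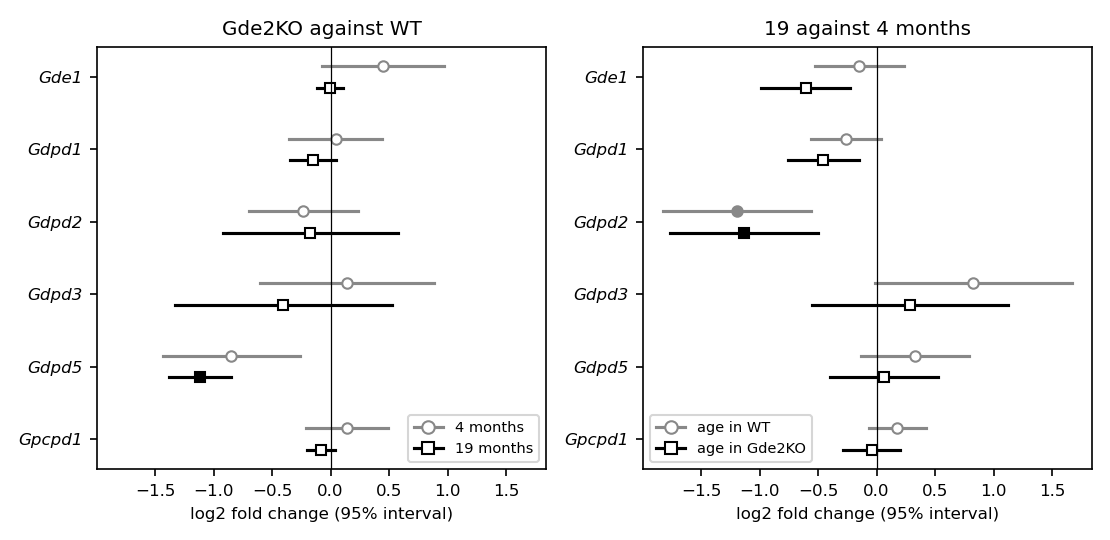
Log2 fold changes with 95% intervals for the 4 paralogs, the targeted gene *Gdpd5* and *Gpcpd1*, between genotypes at each age on the left and between ages in each genotype on the right; filled symbols were called. Only *Gdpd5* at 19 months and *Gdpd2* with age are filled. Of the paralogs, *Gdpd1* at 4 months, *Gde1* at 19 months and *Gde1* with age in WT change sign under other scalings but not relative to the median of all genes. *Gpcpd1* was not fitted under other scalings.

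Annotated transcripts of the paralogs differ in whether they code for the protein. *Gdpd1* has 1 transcript in the table, of 2336 bases with a coding sequence of 942 bases. *Gde1* has 4, and Gde1-201, with a coding sequence of 993 bases, held 93.7% to 98.6% of the gene's TPM in the 12 libraries. *Gdpd2* has 5, of which Gdpd2-201 and Gdpd2-202 both have a coding sequence of 1617 bases. *Gdpd3* has 6, of which only Gdpd3-201, with 990 coding bases, is annotated as coding, and the other 5 are annotated as retaining an intron.

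For *Gdpd3* the coding transcript held the smaller part of the signal. Gdpd3-201 measured 8.72, 6.15 and 3.65 normalized counts in WT and 6.53, 2.01 and 2.47 in *Gde2*KO at 4 months. The values of 19 months were 0, 6.43 and 4.73 in WT and 0, 6.29 and 3.7 in *Gde2*KO. The transcripts with a retained intron held at least 71.2% of the gene's normalized counts in every library. Library A of each genotype at 19 months has 0 Gdpd3-201 reads, which allows up to 14 normalized counts in WT A and 24.9 in *Gde2*KO A, so that an absence cannot be read there. *Gdpd3* lies on the opposite strand from *Gm9967*, whose exons overlap 16.7% of Gdpd3-201 and 32.3% of Gdpd3-203. The strand setting is not given in the sources used here, and reads of the overlap cannot be assigned to a strand. *Mapk3*, the kinase gene upstream on the same strand, had a log2 difference between genotypes of 0.38 at 4 months (adjusted p = 0.511) and 0.13 at 19 months (adjusted p = 0.748).

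For *Gdpd2* the coding transcripts together followed the gene between the ages. Between genotypes at 19 months the group means differed in direction only with *Gde2*KO A included. They measured 191, 172 and 142 normalized counts in WT and 164, 100.1 and 147 in *Gde2*KO at 4 months. The 19-month values were 37.2, 62.1 and 61.9 in WT and 49.8, 78.5 and 80.2 in *Gde2*KO. Their mean at 19 months was higher in *Gde2*KO than in WT, 69.5 against 53.7 (exact two-sided permutation p = 0.3). That of the whole gene was lower, 91.8 against 96.9. Without *Gde2*KO A the log2 difference of the whole gene was 0.22, also higher in *Gde2*KO. The coding values of the shallow libraries rest on 7.98 estimated reads in WT A and 6 in *Gde2*KO A. In *Gde2*KO A these were all reads of the gene. All 4-month values lay above all 19-month values, and WT and *Gde2*KO overlapped at both ages. Of all genes tested, 46% in WT and 41.2% in *Gde2*KO had no overlap between the ages. The split between Gdpd2-201 and Gdpd2-202 is not firm, because 0% of the 31-mers of Gdpd2-201 and 7.68% of those of Gdpd2-202 occur in no other transcript. At its 3′ end *Gdpd2* overlaps the opposite-strand gene *Gm14866*, which covers 32% of Gdpd2-201, and *Gde1* overlaps *Gm45236*, which covers 14.5% of Gde1-201.

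Transcript usage was called for 0 of the 3 paralogs with more than 1 transcript, at either age, by the F test of limma's diffSplice with a share difference over 10 percentage points. Over all genes 1.12% of 12235 tested were called at 4 months and 0.171% of 12253 at 19 months. At 4 months the adjusted p was 0.424 for *Gdpd3*, 0.712 for *Gde1* and 0.803 for *Gdpd2*. At 19 months it was 0.979 for *Gdpd3*, 1 for *Gde1* and 0.925 for *Gdpd2*. The largest share difference, 49 percentage points for Gdpd2-201 at 19 months, includes *Gde2*KO A, where all 6 reads were given to that transcript.

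**Figure D5:**
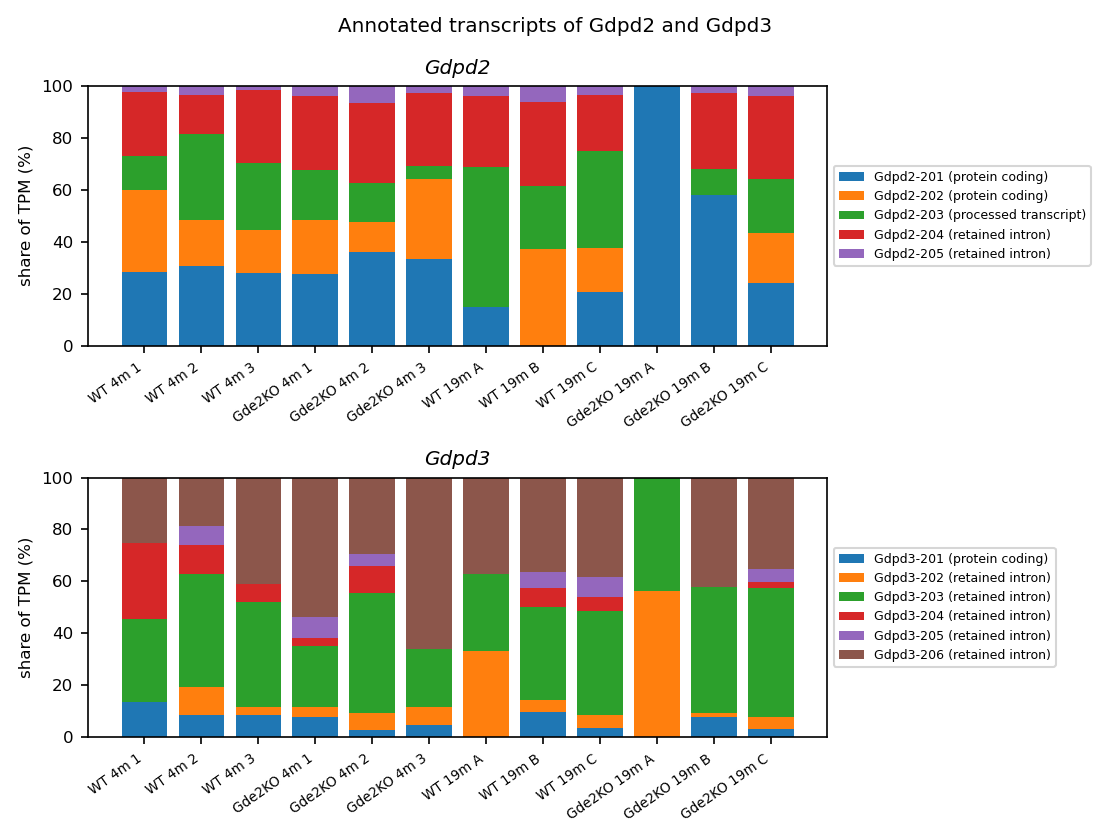
Share of each annotated transcript in the TPM of *Gdpd2* (top) and *Gdpd3* (bottom) in every library, in percent. Gdpd2-201 takes 27.7% to 36.2% in the 4-month libraries and between none and all at 19 months, and Gdpd3-201 takes 13.7% or less everywhere.

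Genes around the paralogs' substrates and products were counted in 4 lists, of which 0 members were called between genotypes at either age. For LPA production and reception, 16 of 16 genes were tested, with a median log2 difference of 0.07 at 4 months and 0.09 at 19 months. Among them *Lypla1* had the smallest unadjusted p at 4 months, with a difference of 0.47 (limma adjusted p = 0.463). *Enpp2*, the gene for the main extracellular LPA-producing enzyme autotaxin, differed by 0.53 at 4 months (adjusted p = 0.463). It measured 3814, 4550 and 7297 normalized counts in WT and 7283, 6450 and 8128 in *Gde2*KO, so that the groups overlapped. *Plpp3*, a lipid phosphate phosphatase that degrades LPA, differed by 0.23 at 19 months (adjusted p = 0.61). For N-acylethanolamine and endocannabinoid enzymes and receptors, 14 of 14 genes were tested, with medians of 0.06 and -0.05. *Pla2g4e*, which makes the N-acylated phospholipids at the head of that pathway, measured 204, 209.8 and 418 normalized counts in WT and 883, 1522 and 1173 in *Gde2*KO at 4 months, a log2 difference of 2.15 (adjusted p = 0.102) that was not called. At 19 months it measured 1374, 1359 and 641 in WT and 1144, 1920.2 and 1958 in *Gde2*KO (0.61, adjusted p = 0.726). The 4-month WT libraries were thus the lowest of all. The 8 striatal markers had a median log2 difference of 2.08 between 4-month *Gde2*KO and WT. Of them 5 had an unadjusted limma p under 0.05 and 0 were called. Their summed level was 5484, 3478 and 53447 in WT and 46063, 73326 and 30726 in *Gde2*KO. WT replicate 3 thus lay within the range of *Gde2*KO. The part of these markers in the *Pla2g4e* difference was not tested. Of the 16 and 14 genes of these lists, 1 and 3 had an unadjusted p under 0.05 at 4 months and 2 and 3 at 19 months, against 10.6% and 6.91% of all genes tested.

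For glycerophosphocholine and choline turnover, 14 of 14 genes were tested, with medians of 0.10 and 0.00. The choline phosphodiesterase gene *Enpp6*, which marks newly forming oligodendrocytes, had the smallest unadjusted p of that list at 4 months, with a log2 difference of 0.56 (adjusted p = 0.463). An unadjusted p under 0.05 was found for 1 gene of this list at 4 months and 0 at 19 months, and for 0 and 1 of the GPI-anchored list. For the 5 GPI-anchored proteins cleaved by GDE2 or GDE3, medians were -0.01 at both ages, and the smallest unadjusted p were those of *Plaur*, the urokinase receptor gene, at 4 months (0.73, adjusted p = 0.495) and of *Cntfr*, a ciliary neurotrophic factor receptor gene, at 19 months (-0.28, adjusted p = 0.614). With age in WT, 3 of 16 LPA genes were called, the phospholipase gene *Pla1a* higher (1.39, adjusted p = 0.0372) and *Plppr4* (-0.99, adjusted p = 0.00444) and *Lpar4* lower. Of the other lists 2 of 14 endocannabinoid genes (*Pla2g4e* higher by 2.02, adjusted p = 0.00406, and *Cnr1* lower), 1 of 14 choline genes and 2 of 5 GPI-anchored genes (*Plaur* higher by 1.41, adjusted p = 0.041, and the glypican gene *Gpc4* at -1.30, adjusted p = 0.0641) were called in WT, against 13.7% of all genes. In *Gde2*KO 1 LPA gene and 1 choline gene were called, both lower, and 0 of the other lists, against 11.9% of all genes. *Lpar4*, an LPA receptor gene, was called lower in both genotypes (log2 -1.75, adjusted p = 0.0128 in WT; -1.24, adjusted p = 0.0456 in *Gde2*KO), as was *Enpp6* (-1.13, adjusted p = 0.0104; -1.17, adjusted p = 0.011). *Cnr1*, the cannabinoid receptor gene, was lower in WT by 0.80 on the log2 scale (adjusted p = 0.000979) and differed by -0.67 in *Gde2*KO (adjusted p = 0.00413), below the fold threshold. These age values carry the same confounding with sex and library set as those of *Gdpd2*. In WT *Gpc4* measured 756, 714 and 211 normalized counts at 4 months and 154 to 229 at 19 months. Its high values were those of replicates 1 and 2, the libraries high in hippocampal markers. Among WT libraries of 4 months, *Lpar4*, *Plppr4* and *Cnr1* were also highest there, and *Enpp6* was not. The part of these libraries in the age calls of these genes was not tested.

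Over the 12 libraries, the levels of the paralogs followed different genes. For *Gde1* the closest of 13611 genes were *Atp6v1e1*, a subunit of the vacuolar proton pump, and *Cox5a*, a subunit of cytochrome oxidase, each with a Pearson r of 0.985, and *Edf1* with 0.984. For *Gdpd1* they were *Ppid* (0.979), *Slc30a6* (0.971) and *Mblac2* (0.968). For *Gdpd2* they were *Sfmbt2* (0.978), the Wnt receptor gene *Fzd8* (0.976) and *Scml4* (0.963). For *Gdpd3* they were *Scnn1a* (0.891), *Nop2* (0.831) and *Cnbd2* (0.822), the loosest of the 4. Within groups, after subtraction of each group's mean, r was 0.969 to 0.987 for the partners of *Gde1* and 0.757 to 0.823 for those of *Gdpd3*. Between the paralogs, r ran from -0.41 for *Gde1* and *Gdpd3* to 0.74 for *Gde1* and *Gdpd1*. All these values share the 12 libraries, their depth and their size factors, and they are given as descriptions.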

How the data were processed

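RNA from cortex was prepared with a polyA-based library kit, 12 libraries in 4 groups. Per the labels and the study's methods, reads were quantified against the GRCm38 transcriptome with kallisto and normalized in sleuth, whose versions are not given in the sources used here. STAR 2.5.2b and Trimmomatic 0.36 are also named in the submitters' processing notes. The authors deposited 2 tables of signal values per transcript, neither of them whole read counts: estimated counts divided by a size factor of each library (normalized counts), and TPM divided in the same way. Shares and levels between genes use the TPM, and all other values the normalized counts. Estimated reads are a library's normalized counts divided by its commonest low value.

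Transcripts were summed to genes. limma 3.58.1 (R 4.3.3) was fitted with an intensity trend to log2(normalized count + 0.5) of genes with 5 normalized counts or more in at least 47% of libraries, within each age for genotype and over all 4 groups for age and interaction. Fold changes are on that scale and understate changes of low genes. p-values were adjusted by the Benjamini-Hochberg method over all tested genes, and called genes passed 0.1 and a natural-log fold change of 0.5, or 0.1 alone for the interaction. This stands in for sleuth, whose own variance estimates were not used here. The pipeline was tested on simulated data. Transcripts without a gene, 0.541% to 0.605% of a library, were left out, and 0 sample columns were left without a group. p-values measure only the spread between these samples, which at 4 months may be technical.

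The 4 paralogs, the gene lists and the tests were chosen with earlier results of these data known. By the rule, the paralogs and the rest of the family are named, and called list members, the 2 of smallest p per list and genotype comparison, the 3 genes of highest r per paralog and overlapping or adjacent genes may be. Alternatives were other pseudocounts, filters, scalings and fits and each replicate left out.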

Additional observations from a re-analysis of the deposited data

How the results depend on the processing

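Under every alternative run, none of the 4 paralogs was called between genotypes at either age, although *Gde1* at 4 months passed the p threshold with array weights (0.44, limma adjusted p = 0.0400, against up to 1 over its alternatives) and missed the fold threshold. The alternatives of leaving out both shallow 19-month libraries, both 4-month WT libraries rich in hippocampal markers, or the *Gde2*KO libraries with high Y-linked transcripts were chosen after seeing the data. The number of genes called was 24 at 4 months, 12 without a filter, 13 with gene sums of TPM, 12 without the trend, 2420 with array weights estimated gene by gene, 14 without WT replicates 1 and 2, and 5 (without *Gde2*KO replicate 3) to 1510 (without WT replicate 3) with 1 library left out. At 19 months it was 18, 7 without the trend, 57 with array weights, 34 without both shallow libraries, and 9 (without WT A) to 45 (without *Gde2*KO B) with 1 left out. For the interaction it was 9, 3 with TPM, 6460 with array weights, and 6 to 2029 (without WT replicate 3 of 4 months) with 1 left out. For age in WT it was 2565, 1692 with a mean of at least 50, 4125 with array weights, 517 without WT replicates 1 and 2, and 1525 (without WT replicate 2) to 3096 with 1 left out. For age in *Gde2*KO it was 2224, and 1096 (without *Gde2*KO replicate 3) to 2851 with 1 left out. Transcript usage gave 137 genes at 4 months, 273 by Simes adjustment and 88 to 721 (without *Gde2*KO replicate 2) with 1 left out, and 21 at 19 months, 48 by Simes adjustment and 25 to 65 (without WT C) with 1 left out. The cause of these differences was not tested.

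At 4 months the *Gdpd1* log2 difference was -0.050 with TMM factors, -0.089 with equal totals, -0.19 with TPM and -0.026 with array weights, and -0.088 to 0.18 with 1 library left out. The *Gdpd3* difference ran from -0.088 to 0.31 with 1 left out. At 19 months *Gde1* was at 0.0049 with TMM factors and 0.0082 with TPM, and from -0.029 to 0.0088 with 1 left out. *Gdpd2* was at 0.10 with array weights and 0.19 without both shallow libraries, and from -0.42 to 0.22 with 1 left out. *Gdpd3* was at 0.15 and 0.080 under the same alternatives, and *Gdpd5* ran from -1.22 to -1.05 with 1 left out. In the interaction, *Gdpd1* was at 0.049 and *Gdpd2* at -0.21 with TPM, *Gdpd2* was at -0.083 and *Gdpd5* at 0.26 without WT replicates 1 and 2, *Gdpd2* ran from -0.19 to 0.45 with 1 left out, and *Gde1* passed the threshold with array weights (-0.47, limma adjusted p = 0.0176, the lowest of its alternatives, which reached 0.873). For age in WT, *Gde1* was at 0.028 with TPM, *Gdpd2* at -0.60 with TPM and -1.05 without WT replicates 1 and 2, where *Gdpd5* was at -0.20, and *Gdpd3* ran from 0.60 to 1.16 with 1 left out. For age in *Gde2*KO, *Gdpd2* was at -0.81 with TPM, *Gdpd3* at -0.26 and *Gdpd5* at -0.067 without the libraries with high Y-linked transcripts, *Gdpd5* ran from -0.042 to 0.24 and *Gde1* from -0.80 (called, without *Gde2*KO replicate 2) to -0.36 with 1 left out.

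At 4 months no pairing by replicate number was seen, with correlations of deviations from group means of 0.06, -0.03 and -0.07 between same-numbered libraries. With the replicate block 21 genes were called in place of 24. At 19 months no paired analysis was possible because the columns of that age carry no replicate number. Depth limits *Gdpd2* and *Gdpd3* in the shallow libraries, which hold 3 to 20 estimated reads of them.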
